A study of Mus musculus with 17 samples.

Results

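Radial glia are the stem cells that line the ventricles of the developing brain, and astrocytes arise from them around birth. Both cell types share a set of genes, among them glutamate transporters, a fatty acid binding protein and intermediate filaments, while the water channel Aqp4 and the filament Gfap rise as astrocytes mature. The 10 genes described here belong to this set: Gfap, Aqp4, Aldh1l1, Slc1a2, Slc1a3, Fabp7, Vim, Nes, Pax6 and Hopx. They were chosen by name, as the rows of the deposited count table whose Ensembl identifier carries one of these symbols in the GENCODE annotation of the mouse genome build GRCm39. All 10 were found among the 55359 genes of the table, and all 10 had enough counts to be tested in forebrain.

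RNA was sequenced from the brain and testes of male mice of the Ocn_GK strain on the 129/SvEv background at postnatal day 1. The strain lacks osteocalcin, a hormone made by bone, through homologous recombination in embryonic stem cells. In forebrain there were 3 WT pups from WT mothers, 3 Ocn+/- pups (Het) and 3 Ocn-/- pups (KO), and both mutant genotypes came from Ocn-/- mothers. Pup genotype, maternal genotype and litter thus cannot be told apart when WT is compared with mutants, whereas Het and KO shared the maternal genotype. The study's legend for its forebrain heatmap lists 2 WT mice, against the 3 WT libraries used here, and does not say which these were. The testes, 2 WT, 3 Het and 3 KO, serve here for comparison between tissues. The sample labels name the brain tissue hippocampus, while the study describes forebrain that includes the hippocampus. Markers of striatum were measured in these libraries beside those of hippocampus (10 of 10 genes passed the filter for each), and 1 of 11 midbrain and hindbrain markers did.

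Each value below is an RSEM expected count, an estimate of the reads of a gene that need not be whole, scaled to counts per 1000000 (CPM) with TMM factors. The forebrain libraries held 6518151 to 14621584 counts, the 6 mutants all at or above 12087907 and the WT libraries at 12916986 or less. WT 3 stood apart: it was the shallowest, 8.50% of its counts fell on the ribosomal RNA gene Rn18s-rs5 against 0.261% to 0.805% in the other 8, and 5.34% on mitochondrial genes against 2.40% to 3.18%. For the 10 genes and the lists of related genes, calls against WT in forebrain are therefore followed by what remained of them without WT 3. Bglap, the osteocalcin gene, had 0 to 5 counts in a forebrain, so the genotype could not be checked at this depth. In tissue RNA, a change in the number of cells of a type cannot be told apart from a change in RNA per cell.

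Levels between genes were compared per kilobase of annotated exon. Fabp7, the brain fatty acid binding protein of radial glia, was by far the most abundant, at 271 ± 36.8 CPM per kilobase (mean ± SD over the 9 forebrains). It was followed by the filament gene Vim (28.2 ± 2.42), the glutamate transporters Slc1a3 (26.2 ± 2.6) and Slc1a2 (16.2 ± 1.95), the stem cell filament Nes (8.75 ± 0.937), Gfap (8.07 ± 2.17) and Aqp4 (7.85 ± 1.39). The lowest CPM per kilobase were those of the folate enzyme Aldh1l1 (6.23 ± 0.444), the homeodomain gene Hopx (5.0 ± 0.499) and the transcription factor Pax6 (1.20 ± 0.133). Vim and Slc1a3 lay within 1 SD of each other, as did Nes, Gfap and Aqp4, and the order of these neighbors was therefore not resolved. Gfap had the largest spread relative to its mean. With the length of the canonical transcript in place of all exons, Slc1a3 came before Vim, Gfap rose to rank 5 and Aldh1l1 to rank 6 (12.6 CPM per kilobase), and Nes moved to rank 8 (9.16), so that the lowest were Nes, Hopx and Pax6.

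**Figure D1:**
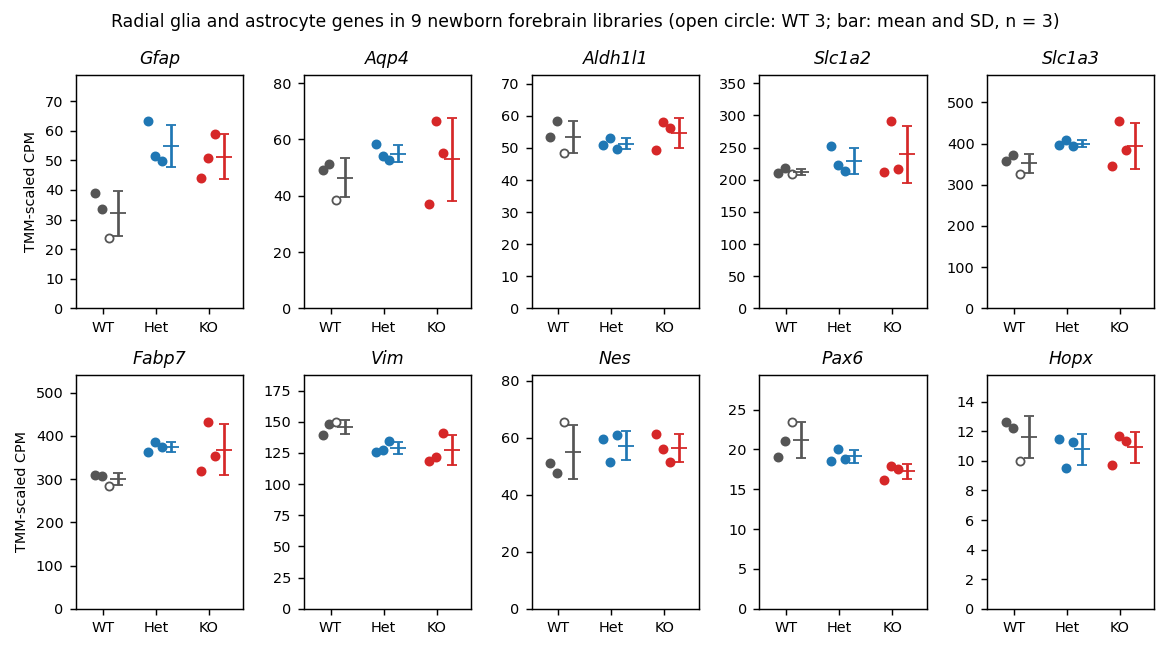
TMM-scaled CPM (y axis, from 0) of each of the 10 genes in the 9 forebrain libraries, by genotype; each circle is 1 library, the open circle is WT 3, and bars give the mean and SD of 3 libraries. In the Gfap and Fabp7 panels the 6 mutant libraries lie above the 3 WT libraries, while in the other 8 panels the mutants overlap with WT.

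Gfap, the filament protein by which astrocytes are recognized, was higher in both mutant genotypes. Its level was 39.0, 33.4 and 23.8 CPM in WT 1 to 3, 63.2, 51.5 and 49.9 CPM in Het, and 44.1, 50.7 and 59.0 CPM in KO. The 6 mutants were thus above all 3 WT libraries, with WT 3 the lowest of the 9. Gfap rose 1.68-fold in Het (95% interval 1.33 to 2.12; log2 fold change 0.75 ± 0.157 SE; adjusted p = 0.0162, edgeR quasi-likelihood test over 16076 genes). In KO its log2 fold change against WT was 0.65 ± 0.157 (SE), and the same edgeR test gave an adjusted p of 0.0289. Gfap was the 1 of the 10 genes called in Het and the 1 of the 10 called in KO, where 3.89% and 4.85% of all genes tested were called. With Het and KO averaged and set against WT, a comparison in which 8.68% of all genes were called, the log2 fold change of Gfap was 0.70 ± 0.140 and the edgeR adjusted p 0.00773.

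Without WT 3 the 6 mutants remained above the other WT libraries, with log2 fold changes of 0.60 in Het (edgeR adjusted p = 0.0502), 0.50 in KO (edgeR adjusted p = 0.0966) and 0.55 for the mean of both (edgeR adjusted p = 0.0359). Of all genes tested 1.11%, 1.15% and 1.95% were called in these 3 comparisons, and of the 10 genes 0, 0 and 1. The Het call was also lost without WT 2 (log2 fold change 0.76, edgeR adjusted p = 0.0553) or Het 1 (0.63, edgeR adjusted p = 0.0611). The KO call was lost without WT 2 (0.67, edgeR adjusted p = 0.0835), KO 2 (0.66, edgeR adjusted p = 0.0857) or KO 3 (0.54, edgeR adjusted p = 0.0657), so that without WT 2 or KO 2 the fold was no smaller than with all libraries. Gfap was called for the mean of both mutant genotypes whichever of the 9 libraries was left out.

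Gfap lies on the minus strand at chr11:102778159-102791738 in GRCm39. The stretches shown are those upstream of the start of its canonical transcript that hold TTCNNNGAA, the palindrome bound by STAT transcription factors, which act on Gfap in developing astrocytes. Capitals mark the match, read 5′ to 3′ on the strand of the gene. The first lies at chr11:102789922-102789950, 1765 to 1737 bases before the start, and the second at chr11:102789454-102789482, 1297 to 1269 bases before it.
Gfap distal match: gtagttggctTTCTGTGAAttccatacct
Gfap proximal match: cttcgatgctTTCCGAGAAgtctattgag
Neither stretch overlaps an annotated exon, but both lie inside 1 longer annotated Gfap transcript. Of 21748 protein-coding genes, 49.4% held at least 1 such palindrome in the 2000 bases before the start, as did 8 of the 10 genes described here, Slc1a2 and Pax6 being without. A match is a description of the letters and not of a bound site.

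Fabp7 was the second gene with all 6 mutants above all 3 WT libraries. It measured 308.9, 306.8 and 283.9 CPM in WT, 361.9, 385.5 and 373.5 CPM in Het, and 318.5, 433.0 and 352.4 CPM in KO. WT 3 was again the lowest library, and KO 1 lay closest to WT. The log2 fold change of Fabp7 was 0.32 ± 0.0916 (SE) in Het (edgeR adjusted p = 0.0573) and 0.29 ± 0.0916 in KO (edgeR adjusted p = 0.0659), neither past the threshold. For the mean of both it was 0.31 ± 0.0804, a 1.24-fold rise (95% interval 1.10 to 1.39; edgeR adjusted p = 0.0231), and without WT 3 it was 0.27 (edgeR adjusted p = 0.137). The adjusted p was also above 0.05 without WT 1 (log2 fold change 0.33, edgeR adjusted p = 0.0524) or WT 2 (0.32, edgeR adjusted p = 0.0639), with folds no smaller than with all libraries. Conversely, Fabp7 was called in Het when any 1 of the KO libraries was left out (edgeR adjusted p = 0.0216 to 0.0476), and in KO when KO 1 was (0.39, edgeR adjusted p = 0.0274). Without KO 2 its log2 fold change in KO was 0.16 (edgeR adjusted p = 0.316). Gfap and Fabp7 were the 2 of 10 genes that lay higher in all mutants than in all WT, a pattern found in 6.85% of all genes tested, and 0 of 10 lay lower in all mutants, against 8.57%. In Het alone 4 of the 10 lay above all WT (Gfap, Fabp7, Slc1a3 and Aqp4) and 1 below (Vim), against 12.9% and 13.9% of all genes, and in KO alone 2 lay above (Gfap and Fabp7) and 1 below (Pax6), against the same 12.9% and 13.9%.

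The 250 bases before the start of Fabp7, a compact gene on the plus strand at chr10:57660956-57664554, are shown because it is the most abundant of the 10 per kilobase of exon and the second called (chr10:57660706-57660955, plus strand, GRCm39; no annotated exon). They hold neither TTCNNNGAA nor TATAAA, the core of the TATA box, on either strand, so no letter is in capitals. In a window of the same length 7.70% and 11.9% of all genes hold these motifs.
Fabp7 upstream: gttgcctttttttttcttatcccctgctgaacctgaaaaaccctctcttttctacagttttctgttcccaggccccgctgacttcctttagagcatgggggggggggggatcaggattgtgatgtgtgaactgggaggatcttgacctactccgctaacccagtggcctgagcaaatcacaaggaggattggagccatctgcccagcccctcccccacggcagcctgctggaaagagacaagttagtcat
The 250 bases hold 3 CpG and 53.2% G and C.

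The glutamate transporters clear glutamate from synapses, Slc1a3 already in radial glia and Slc1a2 mainly in astrocytes. Slc1a3 was at 356.8, 372.8 and 326.1 CPM in WT, 395.8, 409.1 and 393.9 CPM in Het, and 344.4, 453.9 and 384.2 CPM in KO. All 3 Het libraries were above WT, whereas KO 1 fell within the WT range. Its log2 fold change for the mean of both mutant genotypes was 0.17 ± 0.0774 (SE), with an edgeR adjusted p of 0.168. Slc1a2 ranged from 208.7 to 217.7 CPM in WT, 213.7 to 251.9 CPM in Het and 211.7 to 290.7 CPM in KO, a difference of 0.15 ± 0.0917 on the log2 scale for the mean of both (edgeR adjusted p = 0.340).

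Aqp4, the water channel of astrocyte endfeet at blood vessels, was at 49.3, 51.4 and 38.6 CPM in WT, 58.2, 54.2 and 52.6 CPM in Het, and 37.2, 66.4 and 55.1 CPM in KO. The Het libraries lay above WT, but KO held both the lowest and the highest library of the 9. The log2 fold change for the mean of both mutant genotypes was 0.21 ± 0.153 (edgeR adjusted p = 0.430). Aldh1l1, an enzyme of folate metabolism used to mark astrocytes, ranged from 48.4 to 58.3 CPM in WT, 49.8 to 53.2 CPM in Het and 49.3 to 58.2 CPM in KO, and its log2 fold change was -0.02 with a 95% interval of -0.20 to 0.17.

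Vim, Pax6, Nes and Hopx, which are also expressed in radial glia and progenitors, were not called in any comparison of genotypes with all libraries. Vim was at 139.7, 148.6 and 150.1 CPM in WT, 125.4, 127.3 and 134.5 CPM in Het, and 118.7, 121.8 and 141.1 CPM in KO. The Het libraries were all below WT and KO 3 was within the WT range. The log2 fold change of Vim for the mean of both was -0.19 ± 0.0718 (SE), with an edgeR adjusted p of 0.106, and it was called lower when KO 3 was left out (-0.23, edgeR adjusted p = 0.0417). Pax6, which specifies dorsal radial glia, was at 19.0, 21.1 and 23.5 CPM in WT, 18.5, 20.1 and 18.7 CPM in Het, and 16.2, 18 and 17.5 CPM in KO. All 3 KO libraries were below both WT and Het, and the log2 fold change in KO was -0.28 ± 0.129 against WT (edgeR adjusted p = 0.206) and -0.15 ± 0.126 against Het (edgeR adjusted p = 0.999).

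Nes depended on WT 3. It was at 51.2 and 47.7 CPM in WT 1 and WT 2 but at 65.6 CPM in WT 3, the highest of the 9, with 51.5 to 60.9 CPM in Het and 51.5 to 61.3 CPM in KO. Its log2 fold change for the mean of both was 0.06 with all libraries (edgeR adjusted p = 0.756) and 0.20 without WT 3 (edgeR adjusted p = 0.315). Hopx, found in outer radial glia and in astrocytes, was at 12.7, 12.2 and 9.96 CPM in WT, 9.53 to 11.5 CPM in Het and 9.74 to 11.7 CPM in KO, and its log2 fold change was -0.11 ± 0.143 (edgeR adjusted p = 0.670). With WT 3 set aside, Nes joined Gfap and Fabp7 as higher in all 6 mutants, 3 of 10 genes against 9.13% of all genes, and Hopx was the 1 of 10 lower in all 6, against 11.2%.

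Counts of Pax6, Hopx and Vim are less certain than those of the others. Of the exon bases of Pax6, 21.1% overlap the gene Elp4 on the opposite strand, which was expressed at 19.2 to 25.8 CPM, and 38.9% of those of Hopx overlap the antisense RNA Hopxos, at 0 to 0.559 CPM. Whether the counting used strand is not given in the sources used here, and without it reads of such pairs cannot be told apart. Vim shares 12.3% of its exon bases with the antisense RNA Gm54102, which is not among the genes of the count table and so has no level in it. Of the 50-base stretches of the canonical transcripts, 57.2% in Pax6 also occur in a transcript of Elp4 on either strand, 25.8% in Hopx in one of Hopxos and 24.4% in Vim in one of Gm54102. No stretch of 50 bases of the canonical Gfap, Aqp4, Fabp7 or Nes transcripts occurs in a transcript of another gene.

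WT 3 was at one end of the range for 8 of the 10 genes, the lowest of the 9 libraries for Gfap, Aldh1l1, Slc1a2, Slc1a3 and Fabp7 and the highest for Vim, Nes and Pax6. The part that its ribosomal RNA and depth have in these values was not tested.

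Between KO and Het, which share the maternal genotype, none of the 10 genes was called, where 0.00622% of all genes tested (1 gene) were called. The log2 fold changes of KO against Het ran from -0.15 for Pax6 to 0.09 for Aldh1l1. For Gfap the difference was -0.10 with a 95% interval of -0.42 to 0.22, and for Fabp7 it was -0.02 with an interval of -0.21 to 0.17. Pax6 was the 1 gene of the 10 with all KO libraries below all Het libraries, a pattern of 4.12% of all genes.

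**Figure D2:**
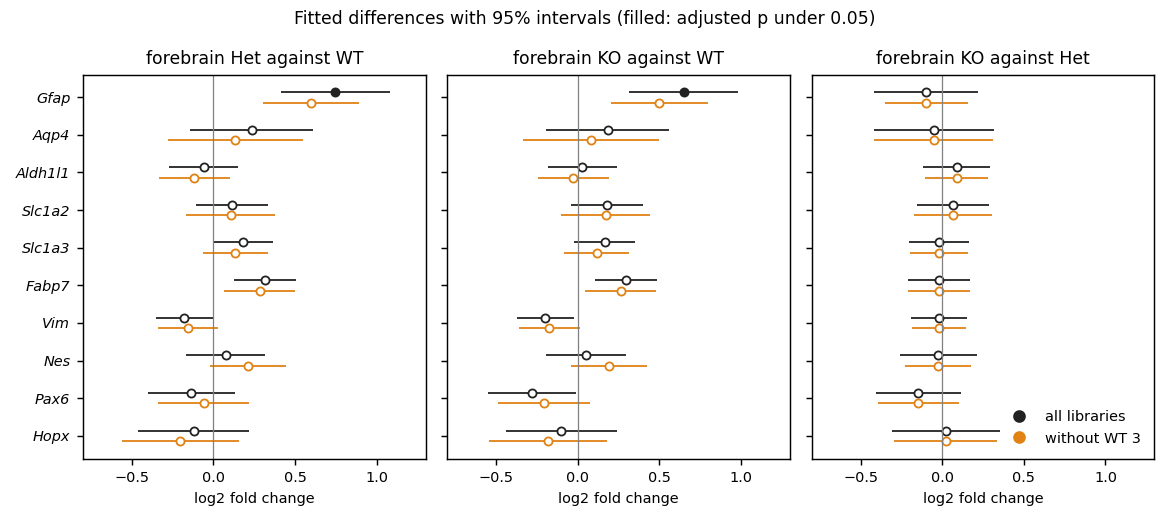
Log2 fold changes (x axis) of the 10 genes for Het against WT, KO against WT and KO against Het, with 95% intervals from the edgeR fit of all libraries (black) and without WT 3 (orange); filled points have an adjusted p under 0.05. Gfap is filled in both comparisons with WT when all libraries are used (0.75 and 0.65), and no point is filled without WT 3 or between KO and Het.

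Other genes of astrocytes moved in both directions. Of 31 further astrocyte genes, all tested, 2 were called higher and 3 lower for the mean of both mutant genotypes, where 3.29% of all genes were called higher and 5.39% lower, and the median log2 fold change of the 31 was 0.07 against 0.01 for all genes. Kcnj10, the potassium channel that buffers potassium in astrocytes, rose by 0.44 ± 0.107 on the log2 scale (edgeR adjusted p = 0.0151; 0.0942 without WT 3), from 29 to 36.5 CPM in WT to 39.0 to 50.1 CPM in the mutants. Glul, the glutamine synthetase that converts the glutamate taken up by the transporters, changed by -0.32 ± 0.0728 on the log2 scale (edgeR adjusted p = 0.0109), from 330.5 to 383.1 CPM in WT to 241.5 to 314.6 CPM in the mutants. Ndrg2 was also lower (-0.34 on the log2 scale, edgeR adjusted p = 0.00636). Without WT 3, Glul and Ndrg2 were the 2 genes of this list still called, both lower. The summed level of the 31 genes was 3834 to 4069 CPM in WT, 3931 to 3994 CPM in Het and 3493 to 4004 CPM in KO, so that the groups overlapped.

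Of 22 other genes of radial glia and the ventricular zone, 0 were called higher and 3 lower, with a median log2 fold change of -0.17. These were the adhesion molecule Cdh2 (-0.29 on the log2 scale, edgeR adjusted p = 0.0161), Prom1 (-0.41, edgeR adjusted p = 0.0336) and the stem cell factor Sox2 (-0.39, edgeR adjusted p = 0.0475). Sox2 was at 79.5 CPM in WT 3, well above WT 1 and WT 2 at 51.4 and 55.3 CPM. Without WT 3 the median of the list was -0.05 and none of the 22 was called, against 0.426% higher and 1.52% lower of all genes. Their summed level, 2729 to 3124 CPM in WT, 2629 to 2834 CPM in Het and 2506 to 2766 CPM in KO, overlapped between groups.

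Reactive astrocytes are a state in which Gfap is also raised. Of 21 genes that mark it, 15 passed the filter, 0 were called higher and 1, Emp1, was called lower (log2 fold change -0.44, edgeR adjusted p = 0.0394), and the median was -0.01. Without WT 3 the call of Emp1 was lost (edgeR adjusted p = 0.269) and 0 of 16 tested genes of the list were called. Serpina3n, a protease inhibitor typical of this state, was at 7.5 to 9.9 CPM in WT, 11.8 to 14.7 CPM in Het and 8.6 to 14.3 CPM in KO, a difference of 0.55 ± 0.173 on the log2 scale for the mean of both (edgeR adjusted p = 0.0531). Of the 12 cell cycle genes 0 were called, with a median of -0.03 (0.07 without WT 3). Among 10 tested genes of intermediate progenitors, Insm1 (-0.84, edgeR adjusted p = 0.00597) and Gadd45g (-0.83, edgeR adjusted p = 0.0150) were lower. Without WT 3 Insm1 was the 1 gene of this list still called (edgeR adjusted p = 0.0314), while Gadd45g had an edgeR adjusted p of 0.0813.

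**Figure D3:**
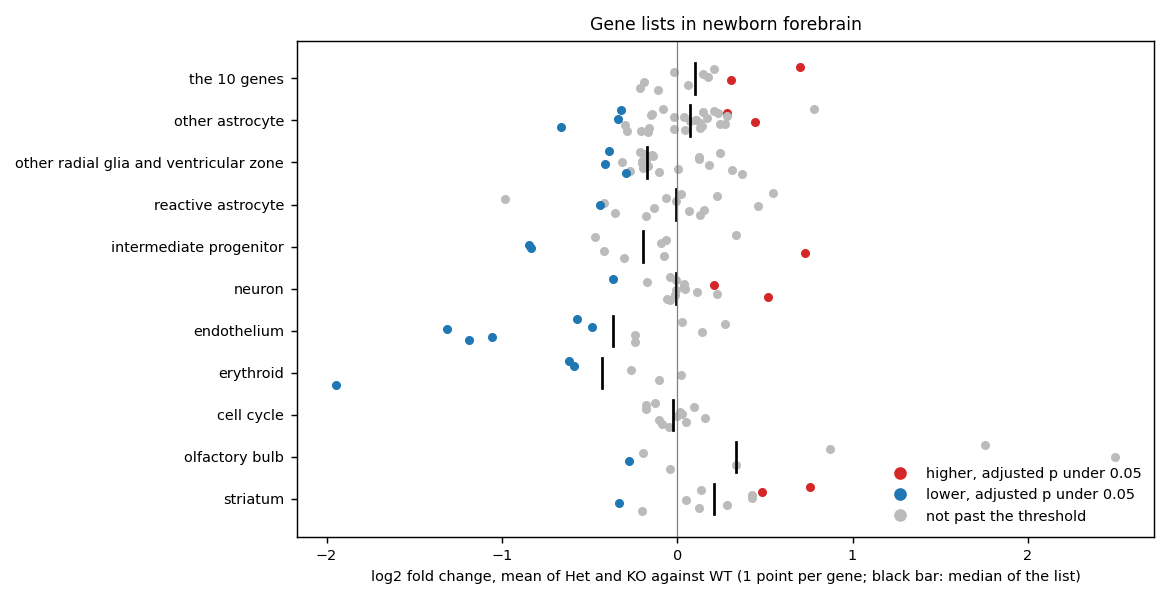
Log2 fold change for the mean of Het and KO against WT (x axis) of each tested gene in 11 lists (y axis); red and blue points are genes called higher and lower, gray points those not past the threshold, and black bars the list medians. The 10 genes have a median of 0.10, the other radial glia list one of -0.17 and the endothelium list one of -0.36.

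Markers of other cells and regions moved with the groups as well. Of 10 endothelial genes 5 were called lower, led by the glucose transporter Slc2a1 (log2 fold change -1.19) and Flt1 (-1.31). Of the 10, 7 had a negative and 3 a positive log2 fold change, the highest at 0.27. The summed level of the 10 was 309 to 367 CPM in WT, 220 to 255 CPM in Het and 220 to 277 CPM in KO, without overlap. This gap leaned on Slc2a1, which alone was at 74.0 to 93.2 CPM in WT, 31.4 to 38.8 CPM in Het and 36.9 to 39.5 CPM in KO. Of 6 tested erythroid genes 3 were called lower. Neuronal genes were called in both directions, Slc17a7 (0.52) and Syt1 (0.21) higher and Dcx, a gene of immature neurons, lower (-0.37). In the lists of oligodendrocyte lineage and microglia 1 gene each was called, Olig1 (0.40) and Cx3cr1 (0.88), both higher, and 1 of 11 mural and fibroblast genes, Acta2 (-0.65), was lower. None of the 8 tested genes of ependyma and choroid plexus, the 10 of hippocampus, the 9 of thalamus and hypothalamus or the 5 of testis was called. The summed level of the thalamus and hypothalamus list was nevertheless 187 to 236 CPM in WT and 195 to 230 CPM in Het against 149 to 184 CPM in KO, and all 9 of its tested genes had a negative log2 fold change in KO against WT (median -0.50, and -0.19 without WT 3). The ependyma and choroid plexus list summed to 587 to 753 CPM in WT, 593 to 878 CPM in Het and 337 to 551 CPM in KO. Most of this sum was Ttr, the transthyretin of choroid plexus, at 540.3 to 711.1 CPM in WT, 549.4 to 829.1 CPM in Het and 304.7 to 509.1 CPM in KO, and 3 of the 8 tested genes of the list had a positive log2 fold change in KO against WT. In the striatal list Drd1 (0.76) and Adora2a (0.49) were higher and Foxp1 (-0.33) was lower. Without WT 3, fewer of these genes were called: 3 of the endothelial list, Slc2a1 and Flt1 among them, 1 erythroid gene, Dcx alone of the neuronal list, Cx3cr1 of the microglial list and Drd1 alone of the striatal list, and 0 in the lists of oligodendrocyte lineage and of mural cells and fibroblasts.

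The olfactory bulb list had 7 of 10 genes tested and 1 called, Reln, lower (-0.28; edgeR adjusted p = 0.123 without WT 3). Of the 7 tested genes 4 had a positive and 3 a negative log2 fold change. The summed level of the list overlapped at 624 to 734 CPM in WT, 648 to 708 CPM in Het and 497 to 626 CPM in KO. Most of this sum was Reln, at 516.4 to 614.6 CPM in WT, 458.8 to 512.3 CPM in Het and 423.5 to 467.4 CPM in KO, so the sum says little of the other genes. Cdhr1, a marker of mitral cells, was at 10.9, 12.6 and 4.8 CPM in WT, 82.5, 71.0 and 92.1 CPM in Het, and 8.1, 51.8 and 54.0 CPM in KO (log2 fold change 2.50, edgeR adjusted p = 0.0795). In Cdhr1, KO 1 was within the WT range and the other mutants were above it. In KO 1, Gfap (44.1 CPM) and Fabp7 (318.5 CPM) were lower than in any other mutant and still above all WT libraries. The part that the makeup of the dissected tissue has in the values of the 10 genes was not tested.

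Across the 9 forebrains, Slc1a3 and Fabp7 varied together most closely among the 10 genes (Pearson r = 0.95 on log2 CPM), followed by Aqp4 and Slc1a3 (r = 0.92). Gfap was less close to Fabp7 (r = 0.76) and to Aqp4 (r = 0.65), and ran opposite to Vim (r = -0.64) and Pax6 (r = -0.73). Aldh1l1 and Nes were opposite too (r = -0.81). These values describe 9 libraries that share depth and genotype differences. Among 10214 genes with at least 10 CPM on average, the ones most like Gfap were St8sia5 and Uqcr11 (both r = 0.98), those most like Fabp7 were Camk2a (r = 0.96) and Syt11 (r = 0.95), and those most like Slc1a3 were Ralyl and Syp (both r = 0.95). Aqp4 was followed most closely by Chrna4 and Tuba4a (both r = 0.93), Slc1a2 by Rab27b (r = 0.93) and Tubgcp5 (r = 0.91), and Aldh1l1 by Yif1a (r = 0.94) and Dennd2b (r = 0.87). For Vim they were Igfbp7 and F13a1 (r = 0.97 and 0.96), for Pax6 Rab6a and Igf2bp2 (both r = 0.98), for Nes Zic4 and Dusp18 (both r = 0.92) and for Hopx 1500009L16Rik and Cep164 (both r = 0.90). Each was picked as among the highest of 10214 values over 9 libraries, a choice that by itself yields high r.

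Nes lies on the same chromosome as the targeted gene, at chr3:87878385-87887758, 403050 bases from Bglap. Of 67 tested genes within 1 Mb of Bglap, 7 were called higher and 3 lower for the mean of both mutant genotypes, where 3.29% and 5.39% of all genes were, and Nes was not among them. These counts were made with all libraries only, and how many calls remain without WT 3 was not examined.

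The 10 genes were also set against testes, where somatic cells express several of them. Of the 10, 9 were higher in forebrain and 1 lower, with 84.4% of all 17800 genes called between the tissues. Vim was lower in forebrain, at 132 to 167 CPM against 711 to 1069 CPM in testes, a log2 difference of -2.57 ± 0.0559 (SE). Nes had the smallest difference, at 52.5 to 73.2 CPM in forebrain and 36.7 to 53.6 CPM in testes (log2 difference 0.56 ± 0.0749). Aldh1l1 (1.69), Hopx (3.16) and Slc1a3 (4.21) were moderately higher in forebrain on the log2 scale, and Slc1a2 (6.93), Gfap (6.89) and Fabp7 (8.03) were higher by far. Gfap summed to 33 counts over the 8 testes libraries (95% exact Poisson interval 22.7 to 46.3, counting error only), Aqp4 to 6 counts (2.20 to 13.1) and Pax6 to 5 counts (1.62 to 11.7), against forebrain levels of 41.4 to 74.4 CPM for Aqp4 and 18 to 26.2 CPM for Pax6. For the last pair no fold is given, since it would depend on the few counts in testes.

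**Figure D4:**
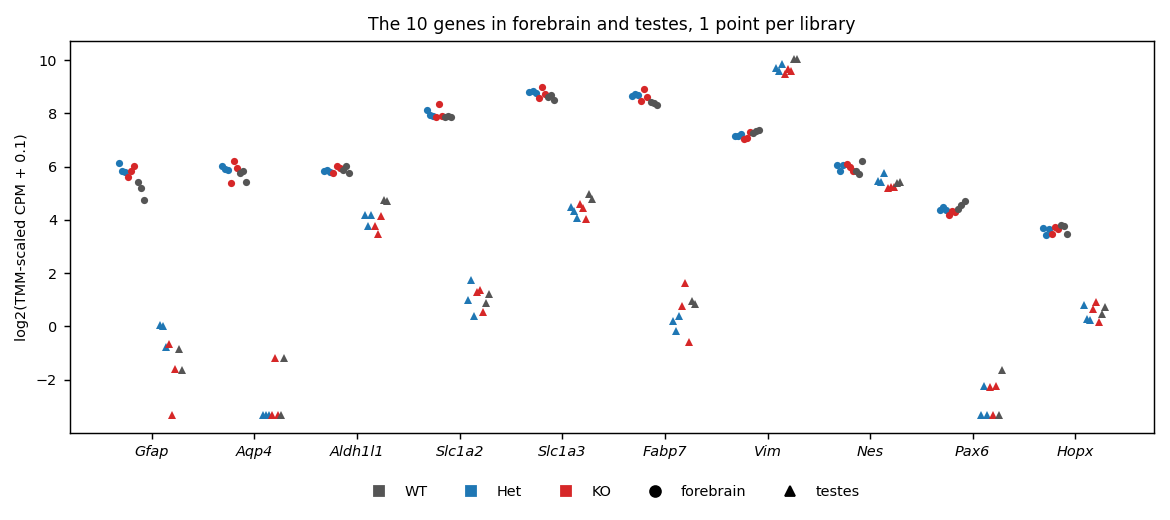
Log2 of TMM-scaled CPM plus 0.1 (y axis) of the 10 genes (x axis) in each forebrain (circles) and testes (triangles) library, colored by genotype. Vim lies higher in testes, Nes lies close in both tissues, and Gfap, Aqp4 and Pax6 are near 0 counts in testes.

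The difference between mutant and WT mice was then compared between tissues. It differed for 2 of the 10 genes, Aldh1l1 and Slc1a3, with 2.96% of all genes called. Aldh1l1 was at 26.1 and 27.0 CPM in WT testes, 13.6 to 18.2 CPM in Het testes and 10.8 to 17.5 CPM in KO testes, while its forebrain levels overlapped. The log2 difference between the tissues was 0.80 ± 0.186 (SE; edgeR adjusted p = 0.0211). Slc1a3 was at 27.2 and 31.5 CPM in WT testes, 16.5 to 22.5 CPM in Het testes and 16.1 to 23.8 CPM in KO testes, with a log2 difference of 0.72 ± 0.170 (edgeR adjusted p = 0.0224). Neither was called without testes WT 1, testes WT 2, forebrain WT 1 or forebrain WT 3, although the log2 differences of these fits were of similar size, 0.73 to 0.82 for Aldh1l1 and 0.61 to 0.82 for Slc1a3. For Gfap the difference was 0.33 with a 95% interval of -1.37 to 2.03, so that the few counts in testes left it unresolved. The same held for Aqp4 (95% interval -0.94 to 5.83) and Pax6 (-1.33 to 2.76), whose sign turned with single libraries left out. The other values were 0.72 for Fabp7 (95% interval -0.12 to 1.57), 0.21 for Vim, 0.09 for Nes, 0.08 for Slc1a2 and -0.03 for Hopx, none past the threshold.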

How the data were processed

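RNA of 17 libraries (9 forebrain, 8 testes; poly-A selected, per the study's methods) was grouped by tissue and genotype from the sample labels. The authors trimmed reads with Trim Galore 0.6.6, aligned them with STAR 2.7.8a to GRCm39 and deposited RSEM 1.3.3 expected counts per gene, without normalization, pooling or filtering. The GENCODE release and the strandedness of counting are not given in the sources used here. Identifiers were matched to the GENCODE annotation of GRCm39 (54749 of 55359 found, the rest carrying no more than 0.102% of any library), and upstream sequence was read from the same build.

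Expected counts were rounded and fitted in R 4.3.3 with edgeR 4.0.16 (TMM, filterByExpr, robust quasi-likelihood test, two-sided). The 9 forebrains entered 1 fit (16076 genes) and all 17 libraries another (17800 genes). Calls required a p under 0.05 after Benjamini-Hochberg adjustment over all genes tested. The fits were also tested on simulated data. Labels do not say that libraries of a group came from separate litters, and p-values measure the spread between these libraries. Testes libraries held 7302401 to 8289015 counts.

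The 10 genes, the lists and the tests were chosen with earlier results of these data known. All 10 genes are named in every comparison, and of each other list the 3 genes with the smallest p for the mean of Het and KO against WT and the most abundant gene could be named, along with the 2 genes most correlated with each of the 10. Some genes of these lists are not reported here. Replicate numbers were checked for pairing through correlated deviations from the group means. Of 9 same-numbered pairs 2 had r over 0.1, and no pairing was used. Alternatives were other normalizations, filters and tests (DESeq2 1.42.0 among them), the 2 genotypes alone, a replicate block and each library left out.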

Additional observations from a re-analysis of the deposited data

Results flagged for a closer look

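For Aldh1l1 and Slc1a3 the difference between mutant and WT mice was itself different between forebrain and testes in the joint edgeR fit. The log2 difference was 0.80 for Aldh1l1, whose adjusted p over 24 alternatives ran from 0.00155 to 0.114, and 0.72 for Slc1a3, whose adjusted p ran from 0.000267 to 0.170. Each was past the threshold in 20 of the 24 alternatives, the exceptions being those without 1 WT library (testes WT 1 or WT 2, forebrain WT 1 or WT 3). In testes all 6 mutants were below both WT libraries for each gene. The same held for Vim, at 1060 to 1069 CPM in WT testes, 781 to 928 CPM in Het and 711 to 823 CPM in KO. The share of all genes with this pattern in testes was not computed, so it is not read as particular to these genes.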

How the results depend on the processing

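Gfap was called for the mean of both mutant genotypes in all 17 alternatives (log2 fold change 0.55 to 0.87). Fabp7 was called for that mean in 14 of 17, without WT 1, WT 2 or WT 3 being the exceptions. In Het against WT, where 1 of the 10 genes was called, 2 (Gfap and Fabp7) were called with DESeq2, without a filter on low counts, with the likelihood ratio test and with only the 2 genotypes compared. In KO against WT 2 were called with library size alone, DESeq2 and no filter. A replicate block gave 2 calls each in Het and KO. It left Gfap past the threshold in both, although the replicate numbers do not pair the samples. With at least 10 counts in every library, 5 of the 10 genes could be tested between forebrain and testes, and 5 were called.

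Of all genes tested, calls in Het against WT were 369 with library size alone, 1265 with no filter and 944 with the likelihood ratio test (625 in the report's fit), and in KO against WT 1502 with no filter (780 in the report's fit). In KO against Het, with 1 call, they were 2 with library size alone, 5 with DESeq2 and with the likelihood ratio test, 34 with no filter, and 0 with at least 10 counts in every library or only the 2 genotypes compared.

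Leaving out each library in turn gave 0 to 2 calls among the 10 genes in Het, 0 to 2 in KO, 1 to 3 for the mean of both, 0 to 2 for the difference between tissues, and 0 in KO against Het. All 10 were called between tissues in each such fit. Over all genes the calls ran from 183 to 830 in Het, 189 to 919 in KO, 1 to 2 in KO against Het and 320 to 1527 for the mean of both.

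Signs turned in 45 of 1150 values of single genes, none of them past the threshold. Under other alternatives these were, on the log2 scale, Aldh1l1 with library size alone in Het (0.0166) and for the mean of both (0.0710), Slc1a3 with library size alone in KO against Het (0.00122), and Slc1a2 with a replicate block in the difference between tissues (-0.17). With 1 library left out, log2 fold changes in Het against WT ran from -0.117 to 0.0047 for Aldh1l1 and from -0.0169 to 0.213 for Nes. In KO against WT they ran from -0.0278 to 0.0963 for Aldh1l1, -0.0158 to 0.380 for Aqp4 and -0.0410 to 0.188 for Nes, and for the mean of both from -0.0723 to 0.0495 for Aldh1l1 and -0.0290 to 0.201 for Nes. In KO against Het they ran from -0.210 to 0.0170 for Gfap, -0.252 to 0.145 for Aqp4, -0.0971 to 0.147 for Slc1a2, -0.133 to 0.0690 for Slc1a3, -0.155 to 0.0723 for Fabp7, -0.102 to 0.0263 for Vim, -0.0956 to 0.0346 for Nes and -0.0592 to 0.0941 for Hopx. In the difference between tissues they ran from -0.25 to 0.88 for Gfap, -1.43 to 4.10 for Aqp4, -0.12 to 0.31 for Slc1a2, -0.0013 to 0.22 for Nes, -2.62 to 1.74 for Pax6 and -0.19 to 0.11 for Hopx. The cause was not tested. Depth limits the comparison of tissues for Gfap, Aqp4 and Pax6, which had at most 8 counts in a testes library.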
